A study of Mus musculus with 15 samples.

Results

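The response of the mouse uterus to a single injection of 17β-estradiol (E2) was compared with that to saline vehicle at 24 hr. The comparison used 6 of the 15 one-color Agilent Whole Mouse Genome arrays analysed here, 3 from E2-treated and 3 from saline-treated animals, chosen by their sample titles. All 6 came from ovariectomized adult C57bl6/J females aged 10 weeks or more, which rested for 10 to 14 days after surgery and so had no ovarian source of estrogen when they were treated. The E2 group received 250 ng of the hormone intraperitoneally in 100 μL, the saline group received the vehicle, and both were collected 24 hr later. The other arrays, 3 each for E2 at 2 hr, estriol (E3, a weaker estrogen) at 2 hr, and E3 at 24 hr, entered the estimate of the spread. Of these, the E2 arrays at 2 hr are titled WT (wild type), came from C57bl6/Jx129 mice, and were read on another scanner and day. According to the labels every uterus was homogenized on its own, whereas the published methods describe pooled tissue. If the arrays do not come from separate animals, the p-values measure only a technical spread.

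Estrogen acts in the uterus mainly through estrogen receptor α, a ligand-activated transcription factor that binds DNA directly or through other factors such as AP-1. In the rodent uterus the first hours bring water uptake and early transcripts, and about a day later the epithelium divides and takes on secretory and protective features while stroma and muscle remodel. Proliferation and cholesterol synthesis are the best known parts of this late phase, and they are not described further here. The genes described below belong to other functions.

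Levels are log2 signals relative to the 75th percentile of the same array, so that a level of 0 is the 75th percentile of that array and 1 unit is a doubling. Differences are E2 minus saline on the same log2 scale, with the standard error (SE) of the limma fit, and adjusted p is the Benjamini-Hochberg value over all tested probes. The call required both a p-value under 0.001 and a change of 2-fold or more. Of 18319 genes tested, 1424 (7.77%) were called higher and 1497 (8.17%) lower after E2, and the median difference of all genes was 0.04. With the proliferation, cholesterol, liver, and pancreas lists set aside, 1214 higher and 1386 lower genes remained. Over probes, 2411 were called higher and 3870 lower. This split depended on the background correction and scaling, with 1571 higher and 1317 lower after normexp correction and 2762 higher and 3064 lower after quantile normalization. The proliferation list had 181 of 244 and the cholesterol list 22 of 33 tested genes called higher. The E2 and saline arrays lay on different slides read by 1 scanner on 1 day, so slide and treatment cannot be told apart.

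The labelled tissue was checked against transcripts that mark uterus. *Esr1* (estrogen receptor α) was at 3.70, 3.58, and 3.69 on the saline arrays and 3.04, 3.41, and 3.24 on the E2 arrays. *Hoxa11*, a homeobox gene of the uterus, lay between 3.59 and 3.95 on all 6 arrays, and *Hoxa10* between 2.56 and 3.16 on the 5 arrays that measured it. The smooth muscle genes *Acta2* and *Myh11* differed by 0.28 ± 0.0988 (SE, n = 3 arrays per group, adjusted p = 0.0258, limma) and 0.23 ± 0.113 (adjusted p = 0.097, limma), neither called. *Krt8*, a keratin of simple epithelium, was called higher (1.49), whereas its partner *Krt18* was not (0.48).

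Some arrays also carried transcripts of neighbouring tissues. The summed signal of 50 exocrine pancreas genes, in multiples of the 75th percentile, was 828 on E2 replicate 2 and 23.5 on E2 replicate 3, against 5.09 on E2 replicate 1 and 5.48 to 6.16 on the saline arrays. Of 232 liver genes tested, 109 (47%) were called lower and 6 (2.59%) higher after E2, beside 8.17% and 7.77% over all genes. *Alb* (albumin) was at 3.38, 1.90, and 1.54 on the saline arrays and -2.93, -3.28, and -3.49 on the E2 arrays. The summed liver signal was 133, 76.4, and 82.1 on the saline arrays and 71.1 to 77.4 on the E2 arrays. Fat genes summed to 93.3, 33.6, and 134 on the saline arrays and 22.7 to 31.9 on the E2 arrays, and all 17 tested were below 0 in the difference, with 2 called. Antigen presentation genes summed to 104 on saline replicate 2 and 25.1 to 46.2 on the other 5 arrays. The part of these tissues in the results was not tested. In whole tissue, fewer cells of a type and less RNA per cell cannot be told apart. Epithelial markers rose, with 9 of 17 (52.9%) called higher and none lower (median 1.03), beside 7.77% higher over all genes. Endothelial markers had a median of -0.44 with 2 of 18 (11.1%) called lower, near the 8.17% over all genes, *Cldn5* (-1.57) and *Cdh5* (-1.06).

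**Figure D1:**
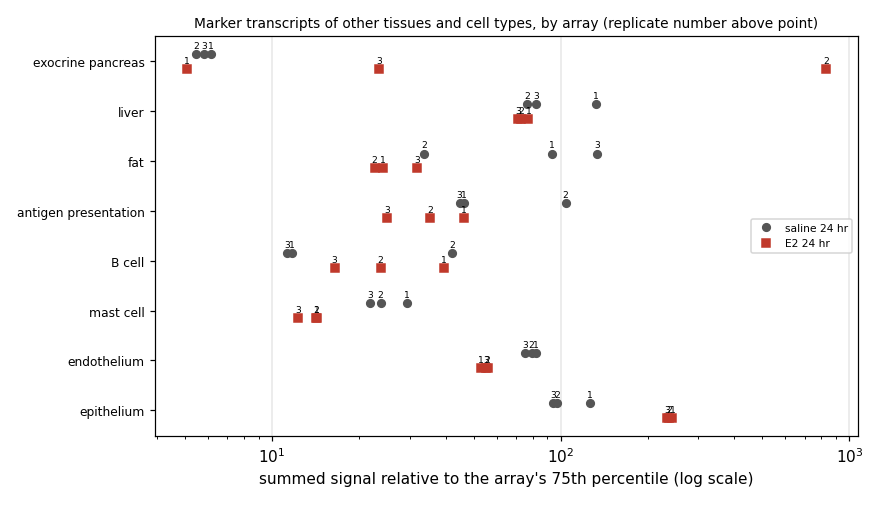
Summed signal of marker transcripts on each of the 6 arrays, relative to the 75th percentile of the array, on a log axis. Points are arrays and the digit above each is the replicate number. E2 replicate 2 stands at 828 for exocrine pancreas, saline replicate 2 at 104 for antigen presentation, and the E2 arrays lie above the saline arrays for epithelium and below them for endothelium, mast cells, and fat.

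Among genes measured in both groups, the largest rises included structural proteins of hard and stratified epithelia. Some secreted and membrane proteins, described below, rose by amounts in the same range, among them *Crtac1* (6.09) and *Unc5cl* (5.60). *Krt85*, a keratin of hair and nail, was at -8.23, -7.33, and -8.12 on the saline arrays and -0.60, -0.06, and 0.38 on the E2 arrays, a difference of 7.80 ± 0.453 (SE, n = 3 arrays per group, adjusted p = 2.1e-07, limma). Its saline level was close to the lowest signal well above background, -8.29 to -7.99 on these arrays, so the size of the change depends on the background subtraction. *Krt86*, another hair keratin, was at -6.08, -5.77, and -6.22 after saline and -1.18, -1.02, and -0.75 after E2 (5.04 ± 0.245, adjusted p = 7.53e-08, limma). *Krt14*, a keratin of basal cells in stratified epithelium, rose by 5.46 ± 1.02 (adjusted p = 0.000562, limma) with a wide spread, from 2.34 to 4.07 on the E2 arrays and from -2.90 to -1.06 on the saline arrays. *Krt14* was no longer called without saline replicate 2 or without E2 replicate 2, with differences of 5.11 and 5.06, and was at 4.71 without both.

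Small proline-rich (Sprr) proteins, which are cross-linked into the cornified envelope beneath the membrane of surface epithelial cells, also rose by large amounts. *Sprr2d* went from -7.71, -6.92, and -7.31 to -1.02, 0.49, and 0.37 (7.26 ± 0.516, adjusted p = 5.75e-07, limma). *Sprr1a* went from -4.54, -4.94, and -4.74 to 1.68, 1.43, and 1.86 (6.39 ± 0.514). *Sprr2f* went from -1.58, -1.58, and -1.42 to 4.56, 4.38, and 4.75 (6.09 ± 0.36). The spread among arrays was widest for *Sprr2d*, whose saline level was near background. Across the cornified envelope list, 11 of 25 tested members were called higher and none lower, with a median of 1.46, beside 7.77% higher over all genes. *Ivl* (involucrin, an envelope scaffold protein) was well above background on 3 of 3 E2 arrays and no saline array, and was at least 4.09-fold higher, where the bound sets the E2 mean against the lowest signal well above background. The Sprr2 genes are close copies of each other, and their probes may share signal, so the 7 Sprr2 genes called are not independent of one another. *Sprr2a1* was not called on its brightest probe, with a difference of 0, while its other probe differed by 6.57 and was called.

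The start regions of the Sprr2 genes that moved together are shown as DNA, since the members lie side by side on chromosome 3 and carry a common letter sequence. Each is 250 bases before and 50 after the transcription start, 5′ to 3′, from RefSeq on GRCm38.p6, plus strand: *Sprr2d* at chr3:92338890-92339189, *Sprr2e* at chr3:92351893-92352192, and *Sprr2f* at chr3:92364937-92365236. Capitals mark TGAGTCA, the letters bound by AP-1 factors.
Sprr2d: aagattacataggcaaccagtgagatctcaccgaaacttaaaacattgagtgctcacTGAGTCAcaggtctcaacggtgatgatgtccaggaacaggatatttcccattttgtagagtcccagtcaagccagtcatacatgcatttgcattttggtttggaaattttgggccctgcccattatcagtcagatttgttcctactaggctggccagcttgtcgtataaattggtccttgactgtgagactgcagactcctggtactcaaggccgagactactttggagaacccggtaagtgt
Sprr2e: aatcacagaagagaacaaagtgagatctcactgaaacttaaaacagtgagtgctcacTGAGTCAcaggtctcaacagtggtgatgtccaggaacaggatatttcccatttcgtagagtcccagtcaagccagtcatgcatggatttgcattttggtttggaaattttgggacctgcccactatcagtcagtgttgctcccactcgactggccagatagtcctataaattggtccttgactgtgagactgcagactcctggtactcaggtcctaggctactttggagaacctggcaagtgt
Sprr2f: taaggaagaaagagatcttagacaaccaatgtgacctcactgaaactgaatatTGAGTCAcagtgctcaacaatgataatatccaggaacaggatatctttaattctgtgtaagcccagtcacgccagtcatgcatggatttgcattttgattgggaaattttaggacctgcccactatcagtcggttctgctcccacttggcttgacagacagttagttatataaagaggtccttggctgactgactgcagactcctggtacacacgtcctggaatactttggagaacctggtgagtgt
The letters begin 193 bases before the start in *Sprr2d* and *Sprr2e* and 197 bases before it in *Sprr2f*. *Sprr2d* and *Sprr2e* were identical at 88% of positions, compared without gaps, and *Sprr2f* at 42.7% with *Sprr2d* and 43.7% with *Sprr2e*. The *Sprr2f* sequence is shifted against the others, so the comparison without gaps understates how alike it is to them. TGAGTCA or its reverse complement TGACTCA occurred in the promoters of 5 of the 5 called Sprr2 genes that have one in the table, in 7 of all 10 Sprr2 genes, and in 1607 (5.95%) of 27025 genes. These letters were searched after the sequences had been read. The Sprr2 genes are close copies, so their promoters are not independent of one another either. Whether AP-1 factors act there was not tested. The estrogen response element, GGTCANNNTGACC, a palindrome read the same on both strands, was found in full in 20 genes (0.074%) and with at most 1 mismatch in 269 (0.995%). It was in none of the promoters of the 58 named genes that rose and the 41 that fell and have one in the table. These windows are short, so a lack of the letters says nothing of more distant sites.

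The other large rises were in secreted and membrane proteins. *Crtac1* (cartilage acidic protein, secreted) was at -3.67, -3.87, and -4.41 after saline and 1.83, 2.24, and 2.25 after E2 (6.09 ± 0.262, adjusted p = 3.92e-08, limma). *Fam3b*, a cytokine-like secreted protein, rose by 5.46, *Aoc1* (diamine oxidase, which breaks down histamine and putrescine) by 5.36, and *Serpina9*, a serine protease inhibitor, by 5.08. *Unc5cl*, a membrane-linked relative of netrin receptors, rose by 5.60. *Klk1* (tissue kallikrein, a serine protease that is also made by pancreas) was at -5.77, -4.53, and -6.07 after saline and -1.06, 1.37, and -1.28 after E2 (5.14 ± 0.784). Its highest array was E2 replicate 2, which also held the most pancreas transcripts, and the part of pancreas RNA in this value was not tested.

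Among the 12 largest falls, *Coch* (cochlin, a secreted matrix protein) stood first, from 0.96, 0.90, and 1.30 on the saline arrays to -4.08, -4.53, and -4.93 on the E2 arrays (-5.57 ± 0.262, adjusted p = 6.7e-08, limma). Its 3 probes differed in size, between -5.57 and -1.83, with the same sign. *Ano2*, a calcium-activated chloride channel, fell by 5.35 on the log2 scale, from between -1.66 and -1.07 to between -6.89 and -6.55. *Inmt*, which methylates indole amines, went from 4.83, 4.46, and 4.49 to -0.26, 0.58, and -0.35 (-4.61 ± 0.264). *Slc5a11*, a sodium-coupled inositol transporter, went from 1.5, 1.78, and 1.01 to -2.31, -2.12, and -3.10 (-3.94 ± 0.341). *Gstt4*, of the glutathione transferases, fell by 3.69 and *Lgi1*, a secreted neuronal protein, by 3.68. *A330023F24Rik*, a transcript with no gene name, fell by 3.75 on the probe used, and its other probe differed by -0.39. *LOC328644*, also unnamed, fell by 3.71.

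*Ces3b* (a carboxylesterase) and *Igfbp1* (an insulin-like growth factor binding protein), also among the 12, are abundant in liver. *Car4* and *Aldh1a3*, which complete the 12, are described with their families. *Ces3b* was at -0.76, -2.74, and -2.76 on the saline arrays and *Igfbp1* at -2.19, -4.13, and -4.09, so both were highest on saline replicate 1, the array with the highest *Alb*. Their differences were -5.30 ± 0.499 and -3.54 ± 0.568, and *Igfbp1* was not called after normexp correction. The part of liver RNA in these values was not tested.

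**Figure D2:**
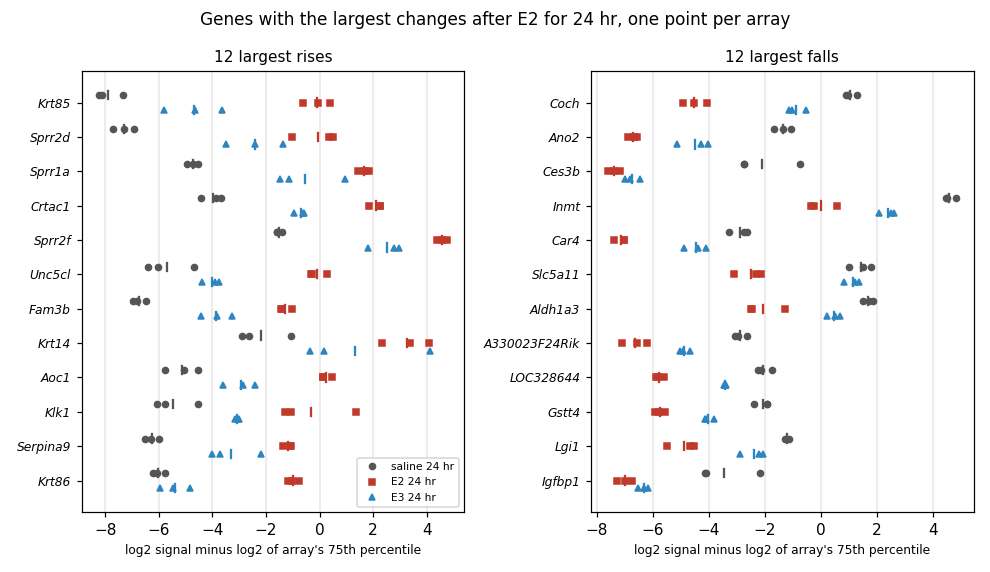
Levels on each array (log2 signal relative to the array's 75th percentile) of the 12 genes with the largest rises and the 12 with the largest falls after E2. Each point is an array, short lines are group means, and the E3 arrays at 24 hr are shown beside them. The rule that chose the 24 genes required that E2 and saline arrays not overlap, and the shifts reach from 7.80 for *Krt85* to -5.57 for *Coch*.

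The E2 arrays at 2 hr came from C57bl6/Jx129 mice and were read on another scanner and day, so their levels are given only as a description of when a transcript was high. *Krt85* and *Krt86* were already at means of 3.17 and 1.53 at 2 hr, above their 24-hr means of -0.09 and -0.98. *Klk1*, with a mean of 1.64 at 2 hr and -0.32 at 24 hr, had the same order. In contrast, *Sprr2d* (-7.33 at 2 hr and -0.05 at 24 hr) and *Serpina9* (-6.35 and -1.19) were near their saline levels at 2 hr. Among the falls, *Inmt* was at 4.66 at 2 hr and -0.01 at 24 hr, and *Lgi1* was already at -4.46 at 2 hr.

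The luminal secretory list covers proteins that the uterine epithelium releases or displays at its surface. Of 23 tested members, 11 (47.8%) were called higher and none lower, with a median of 1.59, beside 7.77% and 8.17% over all genes. *Lcn2* (lipocalin 2, which binds bacterial siderophores) went from -1.90, -2.04, and -2.05 to 1.73, 2.10, and 2.12 (3.98 ± 0.313, adjusted p = 1.05e-06, limma). The membrane mucins *Muc4* and *Muc1* rose by 3.50 and 3.06. *Muc4* was between -3.22 and -2.55 after saline and between 0.48 and 0.82 after E2, and its 5 probes rose by 2.66 to 3.89. *Ltf* (lactotransferrin, an iron-binding secretory protein long used as an estrogen marker) went from 1.55, 1.64, and 1.64 to 3.74, 4.03, and 3.90 (2.28 ± 0.397). *Pigr*, which carries immunoglobulin A across epithelium, rose by 2.11 and *Sftpd* (surfactant protein D, a host defense lectin) by 1.94. *Olfm4* (olfactomedin 4) was well above background on 3 of 3 E2 arrays and no saline array and was at least 8.34-fold higher. Its call was lost without saline replicate 2 or 3 or any 1 of the E2 arrays, in fits without the 2-hr E2 arrays, and after normexp correction. The secreted protease inhibitor *Slpi* (0.76), *C3* (0.23), and *Prap1* (-0.28) did not pass. The promoter of *Ltf*, shown because this gene is the usual marker, holds GGTCA (in capitals), a single arm of the response element, 45 bases before the start. It lies at chr9:111019042-111019341 (plus strand, GRCm38.p6, RefSeq), and the single arm or its reverse complement TGACC was present in 11784 (43.6%) of 27025 genes.
Ltf: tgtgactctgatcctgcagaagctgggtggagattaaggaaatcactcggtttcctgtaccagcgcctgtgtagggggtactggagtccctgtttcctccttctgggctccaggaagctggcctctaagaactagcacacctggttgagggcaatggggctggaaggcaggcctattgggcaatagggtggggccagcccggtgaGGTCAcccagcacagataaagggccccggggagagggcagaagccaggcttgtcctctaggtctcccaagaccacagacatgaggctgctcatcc

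Complement genes moved in both directions. *Cfb* (factor B of the alternative pathway) was at 1.29, 2.75, and 1.14 after saline and 4.01, 4.07, and 3.96 after E2 (2.28 ± 0.509, adjusted p = 0.00197, limma). Its high saline array was replicate 2, the array high in antigen presentation genes, and the call was lost without saline replicate 1 or 3, without any 1 E2 array, in fits without the 2-hr E2 arrays, and after normexp correction or quantile normalization. *Cfi*, the protease that inactivates C3b, rose by 1.70. The classical pathway members *C1ra* (-1.26), *C1s1* (-1.10), and *C2* (-1.05) fell, as did their inhibitor *Serping1* (-1.06), the last not without saline replicate 2. *C1s1* was between 4.09 and 4.28 after saline and between 3.02 and 3.15 after E2. In all, 2 of 20 members (10%) were called higher and 4 (20%) lower, beside 7.77% and 8.17% over all genes, and the median of -0.18 became -0.04 without saline replicate 2.

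Genes for ion and water movement shifted between members of the same families. Of 37 tested, 11 (29.7%) were called higher and 5 (13.5%) lower, beside 7.77% and 8.17% over all genes. The median of 0.45 became 0.18 without saline replicate 2. The epithelial sodium channel, which absorbs sodium from the lumen, fell in all of its 3 subunits, *Scnn1a* by 1.58, *Scnn1b* by 1.34, and *Scnn1g* by 2.05 on the log2 scale. *Scnn1a* was at -0.10, -0.28, and -0.72 after saline and -1.90, -1.93, and -2.01 after E2. *Scnn1g* had 2 E2 values, because 1 spot was set aside, and its call was lost after normexp correction, without E2 replicate 1, and when the 6 arrays were fitted alone. Without saline replicate 2 and E2 replicate 2 together, an alternative chosen after seeing the data, 3 members were called lower. *Cftr*, the chloride channel that drives secretion, rose by 1.77 ± 0.205 (adjusted p = 1.53e-05, limma), from between -2.38 and -2.18 to between -0.74 and -0.35. *Clca1*, a secreted regulator of chloride channels, rose by 2.63, and the anion exchanger *Slc26a9* by 1.79.

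The carbonic anhydrases, which interconvert carbon dioxide and bicarbonate, split. *Car12* rose by 3.85 ± 0.227 and *Car2* by 2.66 ± 0.163, the latter from 2.38, 2.13, and 2.10 to 4.83, 4.83, and 4.95. *Car4* fell by 4.26 ± 0.258, from between -3.28 and -2.65 to between -7.38 and -7.03. The water channels also split, with *Aqp4* (3.1), *Aqp8* (2.65), and *Aqp5* (2.07) higher and *Aqp1*, the channel of vessel walls, lower (-1.04). *Aqp4* was not called after normexp correction. *Aqp5* was at a mean of 4.44 at 2 hr of E2 and 2.07 at 24 hr, and *Aqp8* at 1.54 and -0.37. *Trpv6*, the epithelial calcium channel, went from -1.90, -2.13, and -1.97 to 1.51, 1.40, and 1.48 (3.46 ± 0.229).

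Junction genes rose more often than they fell, with 12 of 45 (26.7%) called higher and 4 (8.89%) lower (median 0.50). Over all genes the shares were 7.77% higher and 8.17% lower, so the share called lower was near that of all genes. *Gjb2* (connexin 26, a gap junction channel) went from 0.13, -0.22, and -0.13 to 2.98, 2.98, and 3.19 (3.13 ± 0.154, adjusted p = 8.1e-08, limma). *Ceacam1*, an adhesion molecule, rose by 2.31 and the tight junction protein *Cldn7* by 1.95. *Cldn1*, another claudin, moved the opposite way, from -0.56, -0.73, and -0.74 to -3.70, -3.54, and -3.82 (-3.01 ± 0.225). *Cdh16* (-1.43) and the endothelial *Cldn5* (-1.57) fell, and *Cdh1* (E-cadherin) rose by 1.03 where *Cdh2* (N-cadherin) fell by 1.03. Without E2 replicate 3, 2 members were called lower, and *Cdh16* was not called without saline replicate 1 or 2 or E2 replicate 1 or 3.

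In the list of endoplasmic reticulum folding and translocation genes, 13 of 30 (43.3%) were called higher and 1 (3.33%) lower (median 0.97). Over all genes the shares were 7.77% and 8.17%. *Sdf2l1*, an ER chaperone complex member, went from -0.44, 0.45, and -0.55 to 2.50, 2.55, and 2.64 (2.74 ± 0.478, adjusted p = 0.000342, limma). *Manf*, an ER stress-inducible secreted factor, rose by 1.79 and *Calr* (calreticulin, a lectin chaperone) by 1.62. *Ddit3* (CHOP), the proapoptotic factor of the unfolded protein response, moved the other way, from 1.00, 0.64, and 0.86 to -0.45, -0.32, and -0.31 (-1.19 ± 0.139). After quantile normalization 6 members were called higher, with a median of 0.74.

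For amino acid supply and tRNA charging, 14 of 32 genes (43.8%) were called higher and none lower (median 0.85), beside 7.77% and 8.17% over all genes. *Pycr1*, the last enzyme of proline synthesis, went from -5.12, -4.09, and -4.66 to -1.43, -1.16, and -1.29 (3.33 ± 0.296, adjusted p = 2.27e-06, limma). *Aldh18a1*, which starts proline synthesis, rose by 1.53. The serine pathway enzymes *Psat1* (2.03) and *Phgdh* (1.19) and the mitochondrial folate enzyme *Mthfd2* (1.88) also rose, along with synthetases for alanine (*Aars*, 1.34), methionine (*Mars1*, 1.37), and valine (*Vars*, 1.25). The 5 *Aars* probes ranged from -0.56 to 1.59. Ribosome biogenesis had 8 of 31 (25.8%) called higher, beside 7.77% over all genes, and all 31 were above 0 (median 0.64). *Nhp2*, of the H/ACA ribonucleoproteins, rose by 1.45, *Bop1*, an assembly factor of the large ribosomal subunit, by 1.33, and *Dkc1*, the pseudouridine synthase, by 1.30. With saline replicate 2 and E2 replicate 2 both left out, 5 were called, and *Dkc1* was not called without saline replicate 2 or any 1 of the E2 arrays.

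Respiratory chain and ATP synthase genes were above 0 in 49 of 49 cases (median 0.79, range 0.32 to 1.87). Of them, 11 (22.4%) were called higher, beside 7.77% over all genes. *Atp5g1*, a subunit of the ATP synthase ring, went from 2.81, 2.60, and 2.40 to 4.40, 4.57, and 4.43 (1.87 ± 0.117, adjusted p = 2.91e-07, limma). *Cycs* (cytochrome c) rose by 1.66, and *Cox5a*, of cytochrome oxidase, by 1.44, although its second probe differed by -0.82. Proteasome subunits were above 0 in 33 of 33 cases with 7 (21.2%) called higher (median 0.77), led by the catalytic subunit *Psmb5* (1.28 ± 0.116). In glycolysis and the pentose phosphate pathway, 8 of 25 (32%) were called higher and none lower (median 0.54), beside 7.77% and 8.17% over all genes. Dimmer probes of *Slc2a3* (2 of 3 probes, range -1.63 to -0.94) and *Pfkp* (1 of 3, range -1.24 to -0.55) were called lower. *G6pdx*, the entry enzyme of the pentose phosphate pathway, rose by 1.81, from between 1.73 and 1.79 to between 3.51 and 3.65. *Eno1* rose by 1.57 and *Pgk1* by 1.45. After quantile normalization the numbers called higher were 4 for the respiratory chain, 2 for the proteasome, and 4 for glycolysis, with medians of 0.55, 0.45, and 0.31.

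Fatty acid synthesis had 3 of 23 (13%) called higher, beside 7.77% over all genes. They were *Elovl6* (1.22) and *Elovl1* (1.18), which elongate chains, and the desaturase *Fads2* (1.10). *Fasn*, the synthase, did not pass (0.34 ± 0.189). In fatty acid oxidation no member was called higher and 2 of 24 (8.33%) were called lower, near the 8.17% over all genes. Both are regulators. *Ppargc1a*, the coactivator of mitochondrial genes, went from 0.61, 0.71, and 0.90 to -0.85, -0.85, and -0.53 (-1.49 ± 0.207). *Pdk4*, the kinase that shuts off pyruvate dehydrogenase, went from 0.32, -0.29, and 0.25 to -1.23, -1.36, and -1.33 (-1.40 ± 0.16). It was lowest among saline arrays on replicate 2, the saline array with the least fat signal, and the part of fat in this value was not tested.

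**Figure D3:**
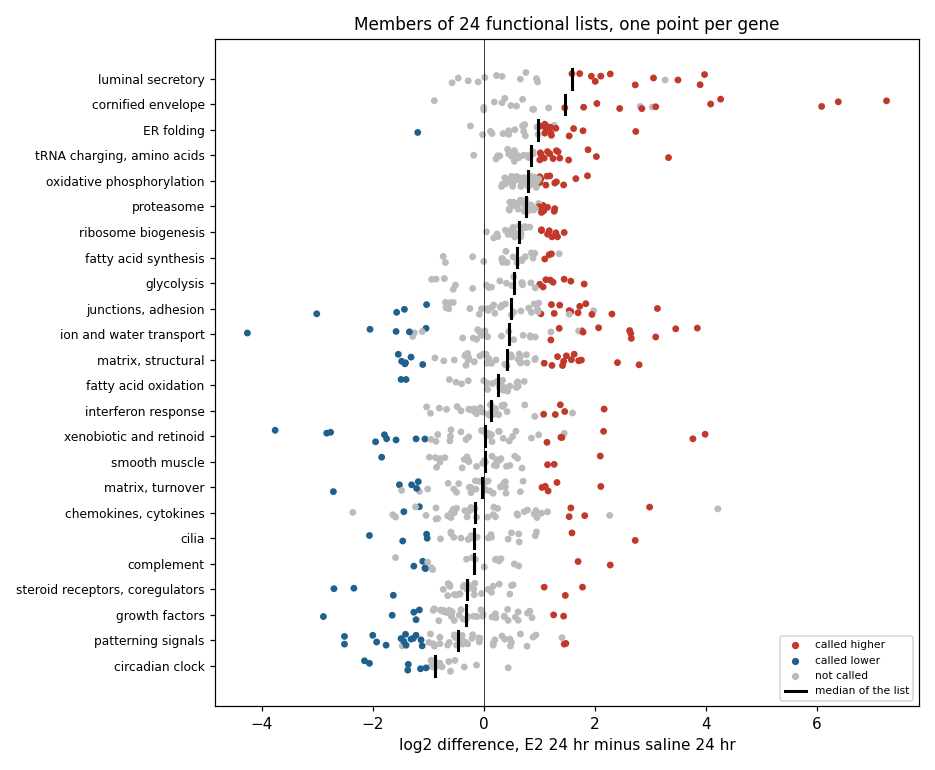
Log2 difference (E2 minus saline at 24 hr) of each tested member of 24 functional lists, ordered by list median (black bars). Red points are genes called higher, blue called lower, and gray not called. Medians run from 1.59 for luminal secretory genes to -0.88 for the circadian clock, and all respiratory chain and proteasome genes lie to the right of 0.

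In the matrix list, 12 of 49 genes (24.5%) were called higher and 6 (12.2%) lower (median 0.42), beside 7.77% and 8.17% over all genes. Several fibrillar and microfibrillar collagens rose, although *Col3a1* (0.93) did not pass. *Col6a2* went from 0.51, 0.66, and 0.58 to 3.18, 3.47, and 3.50 (2.80 ± 0.12, adjusted p = 3.92e-08, limma), and its other probe rose by 1.06. *Col6a1* (1.76), *Col6a3* (1.58), *Col5a1* (1.71), *Col1a1* (1.42), and *Col1a2* (1.23) moved with it, although the other *Col1a2* probe differed by -0.07. *Spon1*, a secreted adhesion protein, rose by 2.41 and *Sparc*, a collagen-binding protein, by 1.63. The basement membrane collagens *Col4a1* (0.62) and *Col4a2* (0.66) and elastin, *Eln* (-0.07), were not called. The falls were in matrix-associated glycoproteins, *Prelp* (-1.54), *Thbs1* (-1.48), *Thbs2* (-1.41), *Fbln1* (-1.31), and *Efemp1* (-1.10), and in the collagen *Col8a1* (-1.42). *Thbs1* was not called after normexp correction, without saline replicate 1 or 3, or without any 1 of the E2 arrays. *Prelp* was at 4.78, 4.30, and 4.63 after saline and 2.96, 3.08, and 3.06 after E2.

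Among proteases and inhibitors that turn the matrix over, 5 of 36 (13.9%) were called higher and 5 lower (median -0.03), beside 7.77% and 8.17% over all genes. *Timp1*, an inhibitor of metalloproteinases, rose by 2.11 ± 0.244, from between -1.01 and 0.19 to between 1.54 and 1.83, while *Timp3* fell by 1.30. *Mmp10* went from -1.43, -1.61, and -1.33 to -4.09, -4.10, and -4.30 (-2.71 ± 0.24), and *Mmp11* fell by 1.52. *Adamts2*, which processes procollagen, rose by 1.32 and *Adamts9* by 1.16. *Plat* (tissue plasminogen activator) fell by 1.21 and *Plaur* (the urokinase receptor) rose by 1.11. Without saline replicate 3, 3 members were called higher.

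Of 30 smooth muscle genes, 3 (10%) were called higher and 1 lower (median 0.02), beside 7.77% higher over all genes. *Casq2* (calsequestrin, the calcium store protein) rose by 2.10, *Actg2* (enteric smooth muscle actin) by 1.27, and *Des* (desmin) by 1.15. *Pde5a*, which degrades cyclic GMP, fell by 1.84, from between -0.62 and 0.15 to between -2.13 and -1.96. *Oxtr*, the oxytocin receptor, did not pass (0.03 ± 0.177). After quantile normalization 1 member was called higher and 3 lower.

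Signals that pattern the reproductive tract fell more often than they rose, with 14 of 55 called lower and 2 higher (median -0.46), beside 8.17% lower over all genes. After normexp correction 12 were called lower and 1 higher. Hedgehog is a pathway by which epithelium signals to stroma. The ligand *Ihh* went from -2.19, -2.35, and -2.68 to -4.45, -4.11, and -4.46 (-1.93 ± 0.201, adjusted p = 6.77e-06, limma). The receptor and target *Ptch1* went from -2.14, -2.30, and -2.05 to -4.78, -4.69, and -4.55 (-2.51 ± 0.245), and the transcription factor and target *Gli1* fell by 1.22. *Hhip*, a Hedgehog inhibitor, was called higher (1.45), but its call was lost without saline replicate 1, 2, or 3, without E2 replicate 2 or 3, without the 2-hr E2 arrays, after normexp correction, and over the mean of its probes. *Smo*, the signal transducer, did not pass (0.20 ± 0.109).

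In the Wnt pathway, the ligands *Wnt11* (-2.51 ± 0.161) and *Wnt7a* (-1.31), the transcription factor *Lef1* (-1.76), the receptor *Fzd1* (-1.13), and the agonist *Rspo3* (-1.41) fell. The secreted Wnt antagonists *Sfrp2* (-2.0 ± 0.198), *Sfrp1* (-1.40), and *Dkk2* (-1.27) fell too. *Wnt11* was between -1.39 and -1.12 after saline and between -4.03 and -3.55 after E2. *Sfrp2* went from 3.52, 3.06, and 3.29 to 1.33, 1.45, and 1.10. *Wnt5a* (0.78) and *Wnt4* (-0.79) did not pass. *Bmp2* (-1.44), the FGF receptor *Fgfr2* (-1.49), and the Notch ligand *Jag1* (-1.11) were also lower. *Bmper*, which binds BMPs, rose by 1.48.

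**Figure D4:**
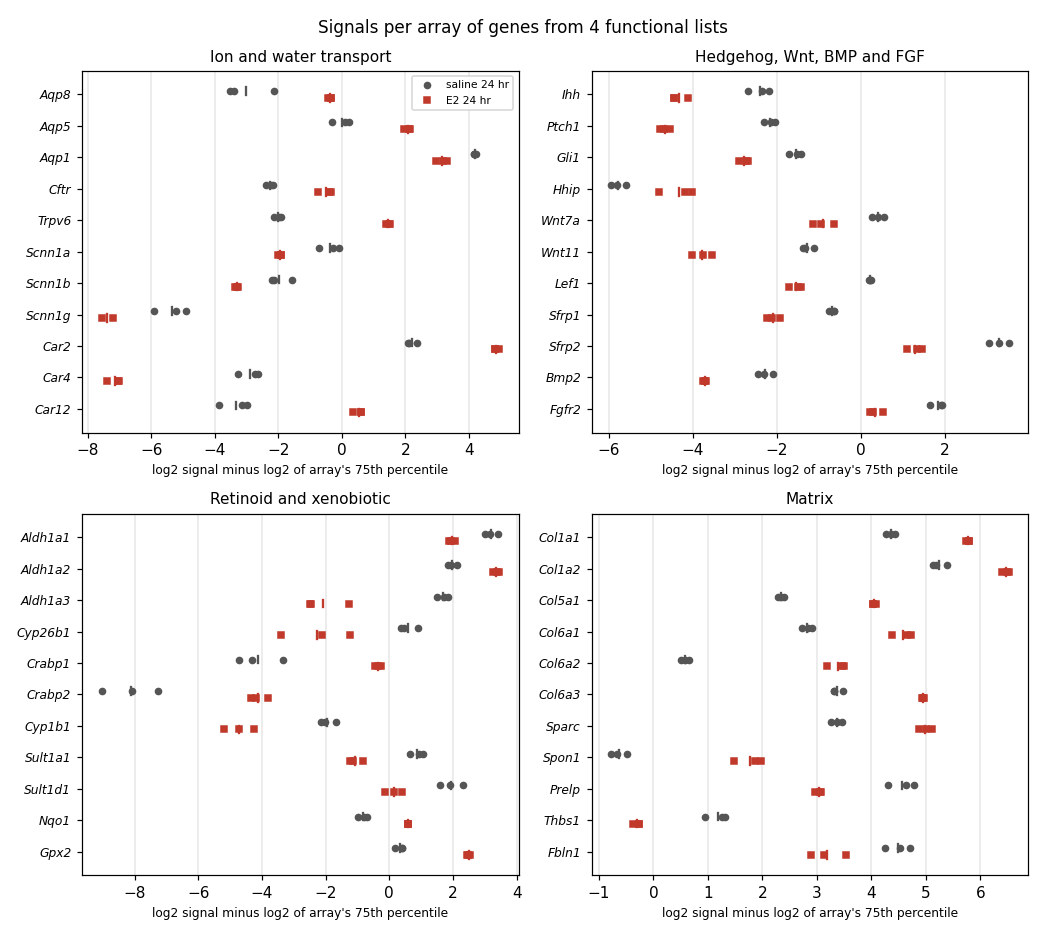
Levels on each saline (circles) and E2 (squares) array, as log2 signal relative to the array's 75th percentile, for 11 genes from each of 4 functional lists. Short lines are group means. The carbonic anhydrases, aquaporins, and retinaldehyde dehydrogenases hold members that move in opposite directions, the 3 sodium channel subunits fall, and *Ptch1* falls by 2.51 while *Hhip* rises by 1.45.

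Growth factor genes had 2 of 45 (4.44%) called higher and 5 (11.1%) lower (median -0.32), beside 7.77% and 8.17% over all genes. The insulin-like growth factor axis held most of them. *Igf1*, the main growth factor of uterine stroma, went from 1.26, 1.18, and 1.03 to 2.43, 2.58, and 2.77 (1.44 ± 0.105, adjusted p = 6.68e-07, limma), and its 3 probes ranged from 0.01 to 1.44. Its receptor *Igf1r* fell by 1.65, its relative *Igf2* by 1.22, and *Igfbp3*, a binding protein that holds it in the matrix, by 2.89. *Igfbp3* was at 3.72, 3.89, and 3.86 after saline and 0.93, 1.12, and 0.74 after E2, the widest gap of the list. *Igfbp5* rose by 1.26. *Angpt2* (-1.16), an angiopoietin, and *Ptgs2* (-1.26), the inducible cyclooxygenase, were called lower, the latter not after normexp correction, after quantile normalization, or without E2 replicate 2.

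Steroid receptors and coregulators had 3 of 31 (9.68%) called in each direction (median -0.30), near the 7.77% higher and 8.17% lower over all genes. *Pgr* (progesterone receptor) went from -1.91, -2.17, and -1.92 to -0.99, -0.86, and -0.86 (1.09 ± 0.106, adjusted p = 4.26e-06, limma), and was at a mean of 0.45 at 2 hr of E2. *Vdr* (vitamin D receptor) fell by 1.63. *Sts* (steroid sulfatase, which frees estrogens from their sulfates) fell by 2.34 ± 0.157, from between 1.26 and 1.62 to between -0.99 and -0.79. *Sult1e1* (estrogen sulfotransferase, which does the reverse) rose by 1.47 from levels near background, and was not called after normexp correction. *Nr0b1*, an orphan receptor that represses steroidogenic genes, fell by 2.70, with 1 of 3 E2 arrays well above background, and was not called after normexp correction. *Esr2* (estrogen receptor β) was well above background on 3 E2 arrays and no saline array, at least 1.30-fold higher, and was not called after normexp correction. *Pgr* did not reach 2-fold over the mean of its probes.

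Retinoid genes changed at several steps. *Aldh1a2*, which makes retinoic acid in stroma, went from 2.12, 1.84, and 1.95 to 3.26, 3.38, and 3.44 (1.39 ± 0.17, adjusted p = 2.36e-05, limma). Its relatives *Aldh1a1* (-1.22) and *Aldh1a3* (-3.76 ± 0.3) fell, the latter from 1.49, 1.73, and 1.85 to -1.27, -2.45, and -2.49. *Cyp26b1*, which degrades retinoic acid, went from 0.90, 0.35, and 0.46 to -3.41, -2.12, and -1.24 (-2.83 ± 0.402). The retinoic acid binding proteins *Crabp2* (3.99) and *Crabp1* (3.77) rose. *Crabp2* was well above background on 1 saline array and was not called after normexp correction. Of the detoxifying enzymes on this list, *Gpx2* (2.16) and *Nqo1* (1.41) rose, and *Cyp1b1* (-2.76), *Sult1a1* (-1.95), *Sult1d1* (-1.79), and *Fmo2* (-1.75) fell. In all, 6 of 40 (15%) were called higher and 9 (22.5%) lower (median 0.02), beside 7.77% and 8.17% over all genes. Several of these enzymes are also made by liver, and the part of liver RNA in their values was not tested. *Sult1a1* was at 1.05, 0.66, and 0.92 on the saline arrays.

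Of 37 interferon response genes, 5 (13.5%) were called higher, beside 7.77% over all genes, and none lower. The median of 0.13 became 0.31 without saline replicate 2 and -0.02 without saline replicate 1. Of the 5, 4 were of the oligoadenylate synthetase family, *Oas1g*, *Oasl1*, *Oas1a*, and *Oas2*, which sense double-stranded RNA. *Oas1a* went from -0.17, 0.69, and -0.09 to 1.51, 1.54, and 1.52 (1.38 ± 0.209), highest among saline arrays on replicate 2. *Oas1g* was well above background on no saline array and was at least 1.77-fold higher. It was not called after normexp correction or without E2 replicate 1 or 3, and *Oasl1* was not without saline replicate 1 or 3 or any 1 of the E2 arrays. The fifth was *Bst2* (tetherin, 1.08). Without saline replicate 2, 7 members were called higher, and 3 were without saline replicate 3, E2 replicate 1, or E2 replicate 3.

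Of 43 chemokines and cytokines, 4 (9.3%) were called higher and 2 (4.65%) lower, beside 7.77% and 8.17% over all genes. The median of -0.16 became 0.41 without saline replicate 2, when 7 were called higher. *Ccl20*, which attracts CCR6-bearing lymphocytes, rose by 2.99 ± 0.384, from between -7.16 and -6.04 to between -4.34 and -3.25, and *Cxcl17* by 1.82. *Ccl28* (1.57), a mucosal chemokine, and *Ccl11* (eotaxin, 1.54), which attracts eosinophils, were called higher, *Ccl20* not after normexp correction and *Ccl28* not after normexp correction, with the 6 arrays fitted alone, or without E2 replicate 2 or 3. *Cxcl12* went from 4.29, 3.81, and 4.18 to 2.54, 2.70, and 2.72 (-1.44 ± 0.156), and *Cxcl14* fell by 1.16. *Cd83*, of antigen-presenting cells, went from 2.92, 2.74, and 2.72 to 0.07, -0.35, and -1.0 (-3.22 ± 0.263). It was the only 1 of 15 antigen presentation genes called, and it was not raised on saline replicate 2.

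Over all genes 7.77% were called higher and 8.17% lower. Cilia genes had 2 of 24 (8.33%) called higher, *Pifo* (2.73) and *Hydin* (1.59), and 4 (16.7%) called lower, *Spag6* (-2.06), *Rfx3* (-1.46), *Dnah5* (-1.03), and *Fam183b* (-1.02). Without saline replicate 1 or E2 replicate 1, 2 were called lower. After quantile normalization 4 were called higher and 2 lower. The 3 *Rfx3* probes ranged from -1.46 to 0.15 and the *Dnah5* probes from -1.03 to 0.67. None of the 6 was called after normexp correction, and *Dnah5* was lost when any 1 array of either group was left out. The circadian list had the lowest median, -0.88, with 6 of 20 called lower, none higher, and 19 below 0. Among them, *Rora* (-1.37), *Nr1d1* (-1.36), *Cry2* (-1.14), *Per2* (-1.04), and the output factor *Hlf* (-2.06) fell. *Hlf* was at 1.12, 0.75, and 1.11 after saline and -1.20, -0.99, and -1.02 after E2. *Clock* itself was at -0.13 ± 0.0835 and *Arntl* (-0.75) did not reach 2-fold. The second *Per2* probe differed by 0.12, and the *Nr1d1* probes ranged from -1.36 to -0.02. The clock hour of collection is not given in the sources used here.

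The arrays of E3 at 24 hr, given at the same dose and time in the same strain, were set against those of E2. They lay on a slide of their own, so slide and treatment cannot be told apart here either. Over all genes, 543 (2.96%) were higher and 434 (2.37%) lower after E3 than after E2. The 24 genes with the largest changes were chosen on the same E2 arrays, a choice that by itself favors a difference from E3 in the direction back to saline, so their values are a description. Of the 12 genes with the largest rises after E2, 9 were lower after E3, by 2.06 (*Sprr2f*) to 4.6 (*Krt85*) on the log2 scale, and of the 12 with the largest falls, 10 were higher after E3, by 1.74 (*Gstt4*) to 3.65 (*Slc5a11*). *Sprr1a*, *Krt14*, *Klk1*, *Ces3b*, and *Igfbp1* did not pass, with differences of -2.20 ± 0.514, -1.95 ± 1.02, -2.75 ± 0.784, 0.65 ± 0.499, and 0.68 ± 0.568 (SE) and adjusted p of 0.00552, 0.158, 0.0162, 0.341, and 0.382 (limma). *Krt14* was at 0.18, 4.11, and -0.34 on the E3 arrays, so 1 of them was as high as the E2 arrays. Ribosome biogenesis (9 of 31 lower after E3), amino acid supply (8 of 32), and the cornified envelope (8 of 25) had the most members lower after E3 among the 24 functional lists. The envelope members include Sprr2 copies, which are not independent. Some ribosome genes lay below saline after E3. Means after saline, E2, and E3 were 0.81, 1.29, and 0.20 for *Rrs1*, not called after E2 against saline, and -3.26, -2.08, and -4.19 for *Rrp12*. Others did not, such as *Nhp2* (2.33, 3.78, and 2.35). *Wnt11* (2.27), *Igfbp3* (2.26), and *Vdr* (1.82) were higher after E3 than after E2, and *Ihh*, at 0.03 ± 0.201 (SE), was not called. These genes too were named for their falls on the same E2 arrays, so their values are likewise a description.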

How the data were processed

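Uterine RNA was measured on 15 one-color Agilent arrays. The authors labeled it with Cy3 and read the arrays in Agilent Feature Extraction 9.5 (9.5.3.1 per the file headers), which subtracted background and corrected trends within the array. The deposited table and scanner files hold the same processed intensity on a linear scale (largest relative difference 0), not normalized between arrays. Here control spots and outlier spots were left out, spots of 1 probe averaged, and the log2 intensity taken relative to the 75th percentile of its array. That percentile was 2988.68 to 4411.89 on the saline and 3382.21 to 3821.35 on the E2 arrays. The number of arrays limits the precision.

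Probes that were well above background in 2 or more arrays of any group were fitted with R 4.3.3 and limma 3.58.1 (5 group means over 15 arrays, 10 residual and 2.06 prior degrees of freedom), which tested 34760 probes. A gene was represented by its brightest tested probe. Symbols were updated by accession for 22951 of 41174 probes. Where a gene was well above background in 1 group only, the other group was set to the lowest signal well above background and the fold is a bound. The procedure was tested on simulated data.

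Named genes are the 12 largest rises and falls off the set-aside lists among genes called, well above background in both groups and with no overlap between their arrays, up to 3 called genes in each direction per list, and a few further members chosen after their values were seen. Some genes are not reported here. The members and lists were chosen with earlier results of these data known. Promoters came from RefSeq (99 of 120 named genes matched). Alternatives were normexp (offset 50), quantile scaling, a percentile over bright probes, no scaling, other filters, cutoffs and sets of arrays, slide or replicate number as a block, the mean of a gene's probes, the scanner files' values, and each array left out. Figures used python 3.11.15 and matplotlib 3.10.9.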

Additional observations from a re-analysis of the deposited data

Results flagged for a closer look

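For 19 of the 24 genes with the largest changes after E2, the level after E3 at 24 hr differed from that after E2 at 24 hr by a direct test (limma, p below 0.001 and at least 2-fold). On the log2 scale, E3 minus E2, the difference was -4.60 for *Krt85*, -4.43 for *Krt86*, -3.91 for *Unc5cl*, -3.19 for *Aoc1*, -2.82 for *Crtac1*, -2.56 for *Fam3b*, -2.37 for *Sprr2d*, -2.11 for *Serpina9*, and -2.06 for *Sprr2f*. Among the falls it was 3.65 for *Slc5a11*, 3.61 for *Coch*, 2.70 for *Car4*, 2.53 for *Aldh1a3*, 2.52 for *Lgi1*, 2.42 for *Inmt*, 2.33 for *LOC328644*, 2.23 for *Ano2*, 1.76 for *A330023F24Rik*, and 1.74 for *Gstt4*. The genes were chosen on the same E2 arrays that this test uses, and that choice by itself favors these directions. Groups of 3 arrays are too small for a search for single outlying arrays.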

How the results depend on the processing

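Of 120 named genes, 84 kept their call under every alternative other than the removal of 2 arrays together, which was not counted here, none changed sign, and 20 lost the call after normexp correction, among them *Igfbp1*, *Aqp4*, *Ccl20*, *Esr2*, and *Crabp2*. After that correction the probes called numbered 2888 (1571 higher and 1317 lower) for E2 against saline and 945 (550 higher and 395 lower) for E3 against E2. With no minimum change they were 13652 (5900 higher and 7752 lower) and 6500 (3460 and 3040), and the list members called were 298 higher and 119 lower for E2 against saline and 83 higher and 166 lower for E3 against E2. In all the other alternatives, the slide as a random block included, these counts stayed within 1.5 times the main ones. With 1 saline or E2 array left out in turn, probes called ranged from 5515 to 6149, of which 2095 to 2466 were higher and 3414 to 3812 lower, and list members from 139 to 159 higher and 65 to 75 lower. Without saline replicate 2 and E2 replicate 2 together, chosen after seeing the data, 2236 probes were called higher and 3575 lower. The replicate numbers did not pair the arrays, as the deviations of arrays with the same number correlated at -0.217, 0.039, and 0.158. With the number as a replicate block, 2361 probes were called higher and 3793 lower. The cause of these shifts was not tested.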

Other observations

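Beyond the lists, families read from gene symbols after the values had been seen held further members that changed. Of 40 keratins tested, 16 were called higher and 2 lower (median 1.84), beside 7.77% and 8.17% over all genes. *Krt5*, the basal cell partner of *Krt14*, went from 0.79, -1.30, and -0.73 to 4.30, 4.81, and 4.43, and *Krt87*, a hair keratin, from -5.89, -5.15, and -6.30 to -0.99, -0.83, and -0.87. *Krt20*, of differentiated simple epithelium, fell by 2.48. Of 5 peptidylarginine deiminases, which convert arginine in proteins such as keratins and histones to citrulline, 4 were called higher. *Padi2* went from -2.14, -2.09, and -2.27 to 2.00, 2.20, and 2.34, *Padi1* rose by 3.67, *Padi4* by 3.21, and *Padi3* by 2.13.

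Of 21 kallikreins, 9 were called higher, beside 7.77% over all genes. All 9 were *Klk1* or its close copies, whose probes may share signal. *Klk1b24*, at -2.33, -2.44, and -2.45 on the E2 arrays, was not raised on the array with the most pancreas RNA, whereas *Klk1b3*, at -0.84, 1.48, and -1.07, was highest there. Of 19 skeletal muscle markers tested, 4 (21.1%) were called higher and none lower, beside 7.77% and 8.17% over all genes. Their median was 0.44, with 12 above 0 and 7 below. The 4 were led by *Tnni2* (fast troponin I, 2.11) and *Acta1* (1.49). The summed signal of the 19 was 9.71 to 10.8 on the saline arrays and 25.7 to 30.7 on the E2 arrays. The part of skeletal muscle RNA in these values was not tested. *Ngfr*, the low-affinity nerve growth factor receptor, rose by 2.92, the largest rise among 20 nerve and Schwann cell markers tested. Of these, 2 (10%) were called higher and 4 (20%) lower, with 9 above 0, 11 below, and a median of -0.03. These values are given as a description, with no test of the families.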
